A study of Homo sapiens with 36 samples.

Results

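The Hic-5 dependence of the dexamethasone (dex) response was measured in 12 of the 36 RNA-seq samples of the study. These are the libraries of cells given a non-targeting siRNA (siNSsiNS) or an siRNA against Hic-5 together with the non-targeting one (siHic5siNS), each treated with dex or with its ethanol vehicle (etoh), with 3 libraries in each of the 4 groups. The quantity examined for each gene was a difference of responses on the log2 scale. It is the change from vehicle to dex with siHic5siNS minus the same change with siNSsiNS, with vehicle and dex libraries paired by replicate number. A value above 0 means that the dex response lay higher when Hic-5 was depleted, and a value below 0 that it lay lower.

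Dex is a synthetic glucocorticoid that binds the glucocorticoid receptor (GR), a transcription factor that then moves onto the DNA, raises the transcription of some genes and lowers that of others. Hic-5, encoded by TGFB1I1, is a LIM-domain protein of the paxillin family. It is found at focal adhesions, where integrins connect the cytoskeleton to the matrix, and also in the nucleus, where it acts as a coregulator of steroid receptors, with effects that differ from gene to gene.

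All libraries came from U2OS cells, a human osteosarcoma line, in a single stable derivative that carries GR alpha, grown in low-glucose medium with serum. The cells received dex at 100 nM or ethanol for 8 h, starting 48 h after siRNA transfection. The other 24 libraries are of cells given siRNA against the chromatin remodelers CHD9 or BRM, with or without the Hic-5 siRNA, and the labels describe the 3 replicates of every group as biological ones from different days. The study asks which dex responses Hic-5 holds back and what those responses need when it is gone. Totals ran from 28.9 to 36.9 M counts over the 12 libraries, and ribosomal protein genes took 4.64% to 6.71% of the counts. The mesenchymal markers VIM and COL1A1 were high in every library, at 991 to 1800 and 1760 to 3260 CPM (counts scaled to library size). SPARC measured 1320 to 2380 CPM. FN1 ran from 586 to 7120 CPM, with vehicle means of 886 with siNSsiNS and 5570 with siHic5siNS. CDH2, THY1 and RUNX2 were lower, at 97.7 to 201, 74.1 to 163 and 20.8 to 63.7 CPM. ALPL reached only 3.6 to 25.6 CPM, and COL1A2 had no entry. The epithelial markers EPCAM and CDH1 stayed at or below 4.84 CPM. The keratins KRT8 and KRT18, also on the epithelial list, measured 86.2 to 362 and 124 to 349 CPM. In bulk RNA, fewer cells of a kind and less RNA per cell cannot be told apart.

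TGFB1I1, the targeted gene, measured 27.9, 29.3 and 28.1 CPM in the siNSsiNS vehicle libraries of replicates 1 to 3 and 28.2, 30.4 and 28.3 CPM with dex. In the siHic5siNS libraries it measured 5.27, 11.2 and 4.74 CPM with vehicle and 5.46, 7.63 and 4.23 CPM with dex. The 6 depleted libraries all lay below the 6 controls, with replicate 2 the least depleted. The level was 24.8% of control with vehicle (log2 change -2.01 ± 0.24 SE, adjusted p = 1.47e-07) and 19.9% with dex (-2.33 ± 0.24, adjusted p = 1.64e-08). Dex itself gave log2 changes of 0.03 ± 0.10 with siNSsiNS and -0.25 ± 0.12 with siHic5siNS, and their difference did not pass the test (-0.27 ± 0.16, adjusted p = 0.737). NR3C1, which encodes GR, averaged 82.7 ± 11.4 CPM (SD, n = 3) with siNSsiNS and 122 ± 19.8 CPM with siHic5siNS in vehicle libraries. Its vehicle level with siHic5siNS was 148% of control (adjusted p = 0.00261). The table does not separate the transgene from the cells' own NR3C1. With dex the means were 76.0 ± 9.18 and 90.9 ± 5.84 CPM, a level difference that did not pass the test (adjusted p = 0.151). Dex lowered NR3C1 with siHic5siNS (log2 change -0.42 ± 0.11, adjusted p = 0.0274), while the siNSsiNS value was -0.12 ± 0.11 and the difference of the responses, -0.30 ± 0.16, was not called (adjusted p = 0.70).

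The dex response lay higher with siHic5siNS for 20 genes and lower for 8 (edgeR quasi-likelihood test with a term for each vehicle and dex pair, adjusted p under 0.05), out of 15179 genes tested. These are 0.132% and 0.0527% of the tested genes. At an unadjusted p under 0.05 there were 1174 genes (7.73%), and the median difference over all genes was -0.02. The called differences on the higher side ran from 0.40 for KRT8 to 2.46 for CDH15, and on the lower side from -0.32 for WDHD1 to -1.35 for UNC80. In all 28 genes the difference had the same sign for the 3 replicate numbers, and the 3 responses of one condition did not overlap the 3 of the other. Among all tested genes 30.1% had the same sign for the 3 numbers and 13.3% had responses that did not overlap. The 28 were called from these same responses, so this agreement follows largely from the call and is no separate support for it. The pair terms carry these calls: a fit of the 12 group means without pairing called 0 genes with edgeR, with 126 genes (0.83%) at an unadjusted p under 0.05. Without 1 of the 6 vehicle and dex pairs, 4 to 16 genes were called higher and 3 to 10 lower. SCNN1A, GPR137B and SMIM3 kept their call whichever pair was left out. A paired fit of the 12 libraries alone, with its own estimate of the spread, called 10 genes higher and 5 lower, and 9 of the 28 kept their call in it: SCNN1A, IL1RAP, GPR137B, WNT5A, SMIM3, SKI, ITGA5, RHOB and RASGRP2.

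With siNSsiNS dex raised 284 genes (1.87% of those tested) and lowered 95 (0.626%), and with siHic5siNS it raised 662 (4.36%) and lowered 693 (4.57%). These balances moved with the scaling: TMM factors gave 252 raised and 123 lowered with siNSsiNS and 706 and 622 with siHic5siNS, and library size alone gave 372 and 70 and 583 and 795. The larger number with siHic5siNS is not a count of genes that respond differently: 1082 genes were called with siHic5siNS only, and the difference was called for 19 of them. Of the 106 genes called with siNSsiNS only, the difference was called for 1, SCNN1A. A further 271 genes were called in both conditions in 1 direction, 6 of them with a called difference (PYGB, KIF13B, SMIM3, LINC00525, RASGRP2 and CDH15). TG and TLR4 were called in both conditions in opposite directions. Of the 204 genes that dex raised in both conditions, 127 (62.3%) had the larger log2 response with siHic5siNS, beside 61.6% of all tested genes, and the median responses were 0.78 with siNSsiNS and 0.90 with siHic5siNS. Of the 67 genes lowered in both, 46 (68.7%) had the larger response with siHic5siNS, with medians of -0.44 and -0.52. The first of these shares is near that of all genes and neither was tested. For 13660 genes (90% of those tested) the difference plus or minus 2 SE lay within 1 log2 unit of 0.

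**Figure D1:**
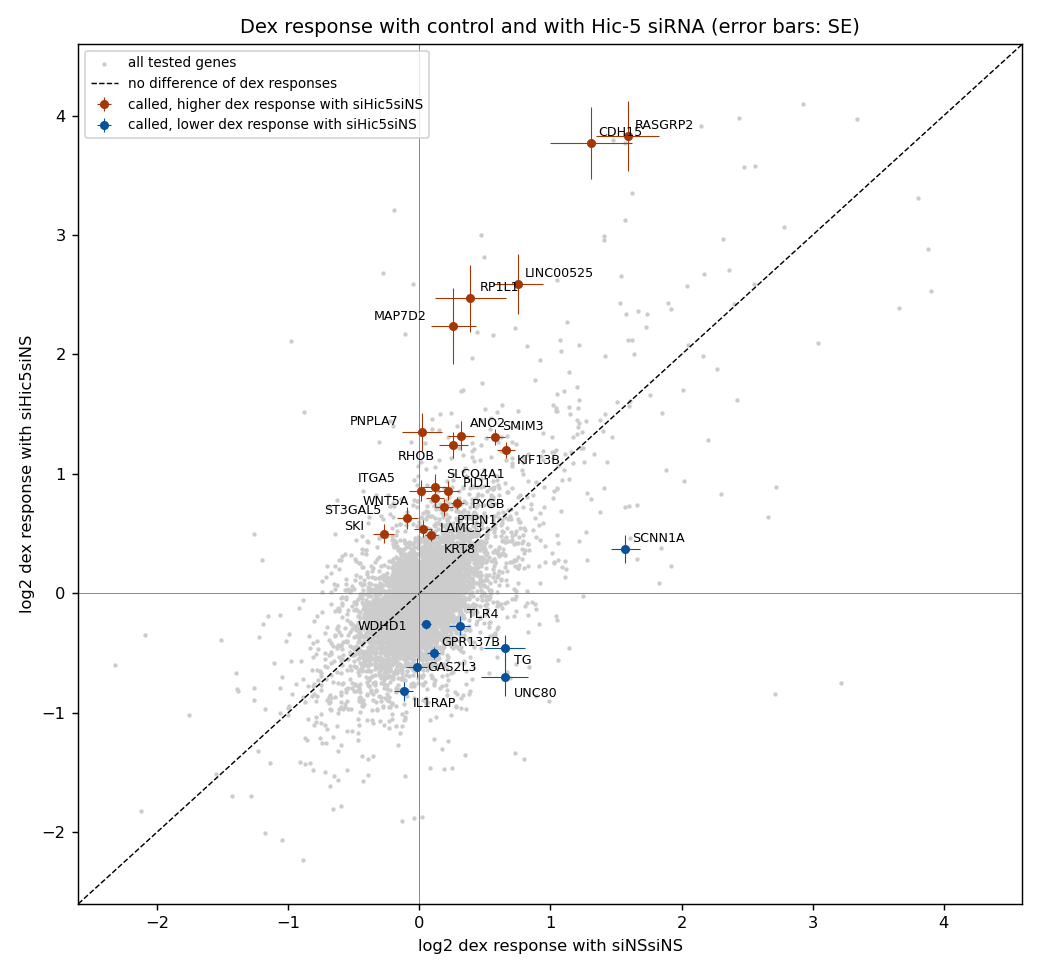
Log2 dex response with siNSsiNS (horizontal axis) against that with siHic5siNS (vertical axis). Grey points are the tested genes, of which 11 lie outside the axes, and coloured points with SE bars are the 28 genes with a called difference, 20 above and 8 below the dashed line of equal responses. RASGRP2 and CDH15 lie highest above the line, and SCNN1A lies farthest to the right among the genes below it.

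The difference of responses can also be read as a difference between levels, since it equals the effect of Hic-5 depletion among dex libraries minus that among vehicle libraries. These 3 comparisons share libraries, so the levels are given as a description of the 28 genes. Hic-5 depletion changed the vehicle level of 8066 genes (53.1%) and the dex level of 8143 (53.6%), in a fit of group means without pairing. Of the 28 genes, 21 were called at the vehicle level and 20 at the dex level. They divided into 14 called at both levels in 1 direction, 6 at the dex level only, 7 at the vehicle level only and 1, SMIM3, at neither. Among the 20 genes with a higher response, 10 had a vehicle level that was lower with siHic5siNS and a gap to control that was smaller with dex: KRT8, PID1, WNT5A, ST3GAL5, SLCO4A1, ANO2, PNPLA7, LINC00525, MAP7D2 and RASGRP2. A higher response and a lower vehicle level give a smaller gap by arithmetic unless dex carries the level farther above control than it began below. The share of all tested genes with this pattern was not counted. For PNPLA7 and RASGRP2 the dex level with siHic5siNS was 138% and 121% of control, neither called. In 4 others, SKI, ITGA5, RHOB and PTPN1, the vehicle level was already higher and the gap was larger with dex. The remaining higher genes were PYGB, LAMC3, KIF13B, RP1L1 and CDH15, called at the dex level only, and SMIM3. Among the 8 genes with a lower response, SCNN1A, IL1RAP, GAS2L3 and WDHD1 had a lower vehicle level and a wider gap with dex. UNC80, TG and GPR137B had a raised vehicle level that lay closer to control with dex, and TLR4 was called at the dex level only.

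**Figure D2:**
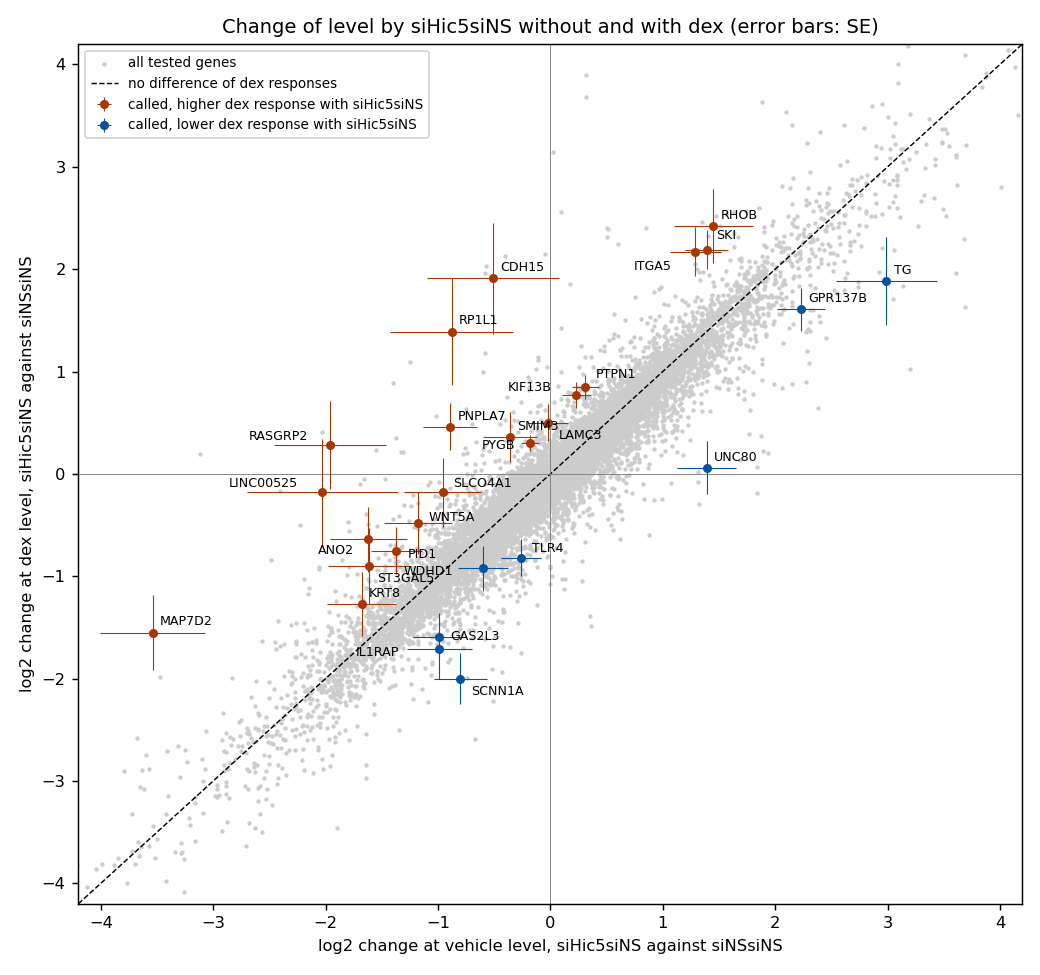
Log2 change of level by siHic5siNS against siNSsiNS among vehicle libraries (horizontal axis) and among dex libraries (vertical axis). Grey points are the tested genes, of which 56 lie outside the axes, and the dashed line marks equal changes. Of the 20 genes above the line, 15 lie left of 0 on the horizontal axis, 10 of them with a called vehicle level and a smaller gap with dex.

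SCNN1A encodes a pore-forming subunit (alpha) of ENaC, the sodium channel of epithelia, and is a classical glucocorticoid target. Among the 28 it was the 1 gene that dex raised with siNSsiNS and for which the response with siHic5siNS was not called. It measured 40.2, 43.6 and 34.0 CPM in siNSsiNS vehicle libraries and 135, 111 and 104 CPM with dex. With siHic5siNS it measured 19.4, 22.3 and 26.0 CPM with vehicle and 27.4, 26.4 and 33.8 CPM with dex. Every depleted library lay below every control library of the same treatment, and in depleted cells the vehicle and dex ranges lay side by side without overlap. Dex raised it 2.98-fold with siNSsiNS (log2 1.57 ± 0.11, adjusted p = 1.41e-07), and the siHic5siNS value was 1.29-fold (0.37 ± 0.12, adjusted p = 0.0549). The difference was -1.2 ± 0.16 (adjusted p = 0.00348), and -1.25, -1.1 and -1.23 for replicates 1 to 3. The level was 57.6% of control with vehicle and 25% with dex.

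Genes of cell adhesion and the cytoskeleton made up the next group. ITGA5 encodes the integrin alpha 5 subunit, which pairs with beta 1 to form the main fibronectin receptor. Its 3 control vehicle libraries measured 212, 242 and 227 CPM and the dex libraries 213, 222 and 251 CPM, so that the 2 groups overlapped. In depleted cells the vehicle libraries measured 589, 641 and 438 CPM and the dex libraries 1050, 1310 and 718 CPM, with no overlap. The dex response was 0.01 ± 0.09 with siNSsiNS and 0.86 ± 0.09 with siHic5siNS (adjusted p = 4.46e-06), a difference of 0.85 ± 0.13 (adjusted p = 0.00897). RHOB encodes a small GTPase that acts on actin and on endosome traffic. It measured 116, 145 and 93.4 CPM with vehicle and 143, 157 and 120 CPM with dex in controls. In depleted cells it measured 253, 491 and 226 CPM with vehicle and 697, 1040 and 513 CPM with dex, all above the controls. Dex raised it 2.36-fold with siHic5siNS (adjusted p = 1.35e-06), the siNSsiNS value was 1.2-fold (adjusted p = 0.324), and the difference was 0.98 ± 0.16 (adjusted p = 0.00989). The call of ITGA5 was lost without the replicate 2 pair of siNSsiNS (adjusted p = 0.0559). That of RHOB was lost without replicate 1 of either condition or replicate 2 of siNSsiNS (adjusted p up to 0.0866).

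CDH15, a cadherin of muscle cells (M-cadherin), was low in vehicle libraries of both conditions, at 1.24, 1.57 and 2.51 CPM with siNSsiNS and 2.1, 0.302 and 1.33 CPM with siHic5siNS. With dex it measured 3.54, 4.24 and 5.32 CPM in controls and 19.6, 14.8 and 14.8 CPM in depleted cells. Dex raised it in both conditions, 2.48-fold and 13.6-fold, and the depleted dex libraries lay above all others. The difference of 2.46 ± 0.44 (adjusted p = 0.0254) was the largest of the called genes on the log2 scale. KRT8 and LAMC3 were named after their values were seen. KRT8, an intermediate filament keratin, averaged 296 ± 59.1 CPM (SD, n = 3) with vehicle and 312 ± 44.2 with dex in controls, against 92.5 ± 7.39 and 129 ± 6.34 CPM in depleted cells. Its difference of 0.40 ± 0.07 (adjusted p = 0.0309) stood beside a level that was 31.3% of control with vehicle and 41.4% with dex. LAMC3, a laminin gamma chain of basement membranes, averaged 24.6 ± 5.10, 25 ± 4.23 and 24.2 ± 2.47 CPM in the 3 groups other than depleted dex, where it averaged 35.2 ± 3.07 CPM (difference 0.51 ± 0.10, adjusted p = 0.033). GAS2L3, which links actin and microtubules, moved the other way, from 12.5 ± 2.75 to 8.10 ± 1.62 CPM with dex in depleted cells against 24.7 ± 3.97 and 24.5 ± 4.03 CPM in controls (difference -0.60 ± 0.11, adjusted p = 0.0309). The calls of KRT8, LAMC3 and GAS2L3 were lost whichever of the 6 pairs was left out (adjusted p from 0.0771 to 0.274 over the 3 genes). Without library scaling factors KRT8 and LAMC3 also lost theirs (adjusted p = 0.0885 and 0.0668). CDH15 lost its call without the siHic5siNS replicate 2 pair or any siNSsiNS pair (adjusted p up to 0.158).

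**Figure D3:**
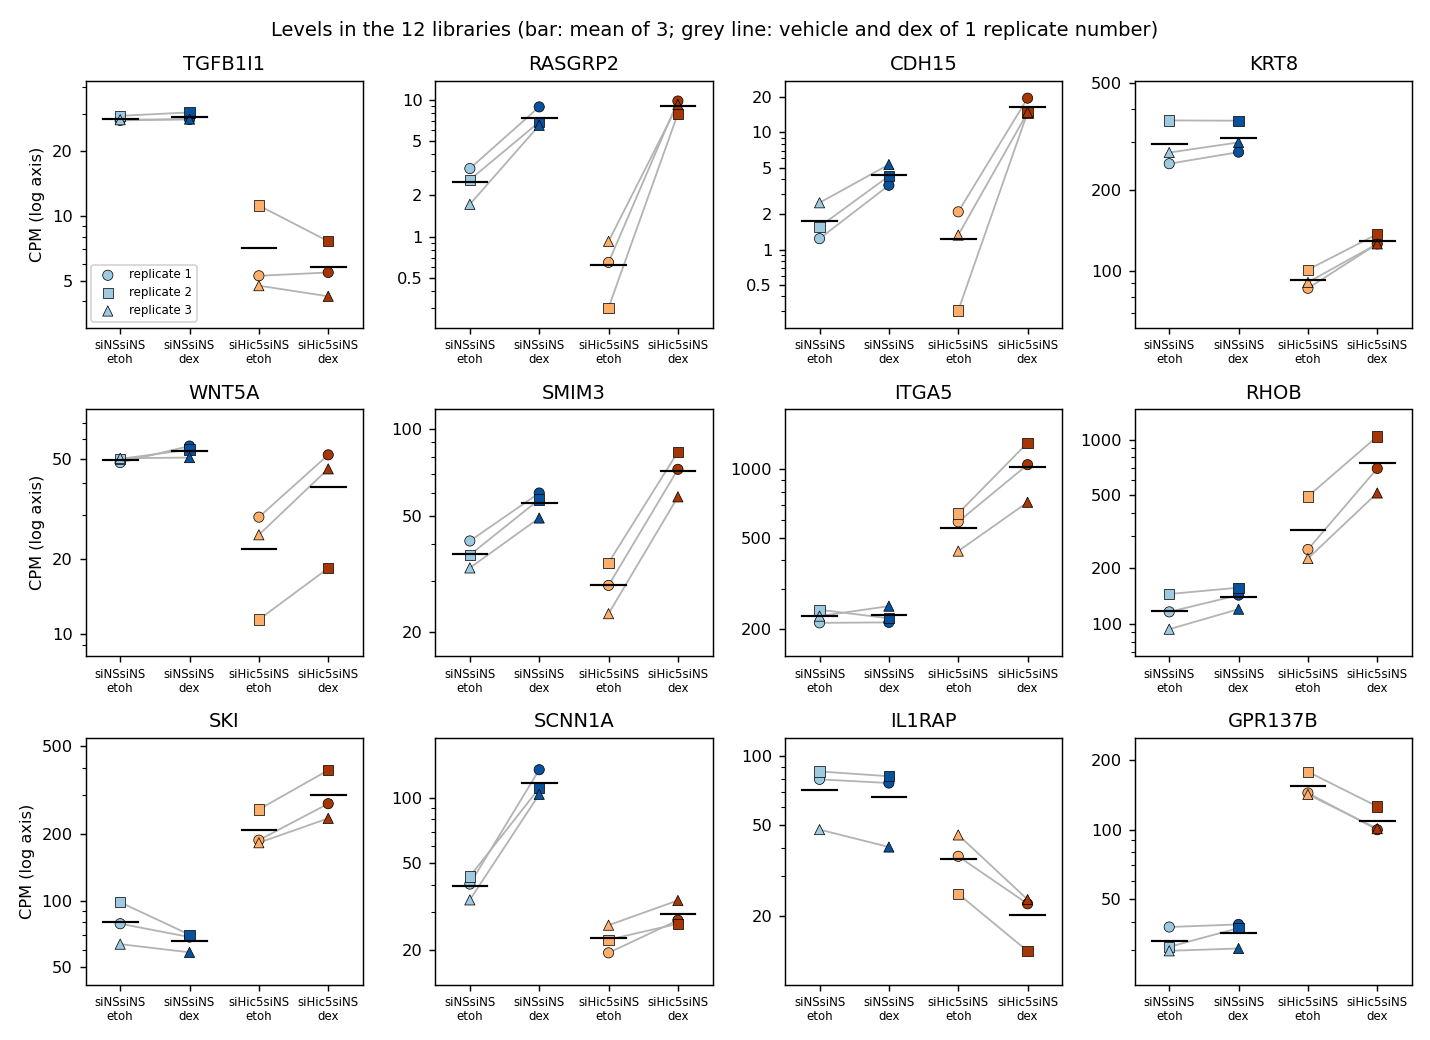
CPM on a log axis in each of the 12 libraries for TGFB1I1 and 11 genes with a called difference. Points are libraries with a shape for each replicate number, bars are means of 3 and grey lines join the vehicle and dex library of 1 replicate. The grey lines of ITGA5, RHOB and SKI climb more steeply in the siHic5siNS columns, and those of SCNN1A in the siNSsiNS columns.

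Signalling genes included SKI, WNT5A, RASGRP2, PTPN1, PID1, IL1RAP and TLR4. SKI is a corepressor that holds SMAD proteins, the effectors of TGF-beta, in check. It measured 78.6, 98.3 and 63.5 CPM with vehicle and 68.4, 70.1 and 58.3 CPM with dex in controls, and 188, 259 and 183 CPM with vehicle and 275, 390 and 236 CPM with dex in depleted cells. In every pair the dex value was the lower of the 2 in controls and the higher of the 2 in depleted cells. The responses were -0.27 ± 0.08 (adjusted p = 0.118) and 0.50 ± 0.08 (adjusted p = 0.000632), a difference of 0.77 ± 0.12 (adjusted p = 0.00989). The level of SKI was 262% of control with vehicle and 458% with dex. WNT5A, a secreted WNT ligand of the non-canonical branch, measured 48.4, 50.1 and 50.4 CPM with vehicle and 56.4, 54.6 and 50.7 CPM with dex in controls. Its depleted libraries spread widely, at 29.3, 11.4 and 24.9 CPM with vehicle and 52.0, 18.3 and 45.7 CPM with dex, and replicate 2 was lowest in both. Within each pair, however, the dex value was 0.66 to 0.86 log2 units above vehicle, and the difference was 0.69 ± 0.10 (adjusted p = 0.00989). Dex brought the level from 44.1% of control (adjusted p = 0.00171) to 71.8%, where the gap was no longer called (adjusted p = 0.176). The calls of SKI were lost without replicate 2 of either condition (adjusted p up to 0.0635), and that of WNT5A without replicate 3 of siNSsiNS (adjusted p = 0.065).

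RASGRP2, an exchange factor that activates the small GTPase Rap1, measured 3.14, 2.60 and 1.72 CPM with vehicle and 8.86, 6.87 and 6.5 CPM with dex in controls. In depleted cells it measured 0.647, 0.302 and 0.922 CPM with vehicle and 9.78, 7.90 and 9.23 CPM with dex. The vehicle libraries of depleted cells thus lay below all controls, whereas their dex libraries overlapped the control dex libraries. Dex raised it 3.02-fold with siNSsiNS and 14.2-fold with siHic5siNS (difference 2.23 ± 0.40, adjusted p = 0.0251), and the level went from 25.6% of control with vehicle to 121% with dex. Its call was lost without any pair other than replicate 3 of siHic5siNS (adjusted p up to 0.143). PTPN1, the tyrosine phosphatase PTP1B and a gene named after its values were seen, averaged 208 ± 14.8 CPM (SD, n = 3) with vehicle and 345 ± 38.2 with dex in depleted cells, against 168 ± 12 and 191 ± 8.62 CPM in controls (difference 0.53 ± 0.10, adjusted p = 0.0309). PID1, an adaptor that dampens insulin signalling, averaged 11.9 ± 3.11 and 21.3 ± 2.64 CPM in depleted cells and 30.7 ± 5.05 and 35.9 ± 6.02 CPM in controls (difference 0.63 ± 0.11, adjusted p = 0.0251). The call of PTPN1 was lost without any pair other than replicate 3 of siHic5siNS (adjusted p up to 0.264), and without library scaling factors (adjusted p = 0.0854). That of PID1 was lost without replicate 2 of siHic5siNS or any pair of siNSsiNS (adjusted p up to 0.131).

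The 2 innate immune receptors of the set had lower responses. IL1RAP, the shared signalling chain of the interleukin-1 receptor family, measured 79.4, 86.0 and 47.9 CPM with vehicle and 76.5, 81.9 and 40.2 CPM with dex in controls. Depleted cells gave 36.6, 25.1 and 45.4 CPM with vehicle and 22.7, 14.1 and 23.7 CPM with dex. The depleted libraries lay below the controls of the same treatment, in which replicate 3 was lowest. Dex lowered it 1.77-fold with siHic5siNS (adjusted p = 2.13e-06), the siNSsiNS response was -0.12 ± 0.07, and the difference was -0.70 ± 0.11 (adjusted p = 0.00989). TLR4, the receptor for bacterial lipopolysaccharide, measured 111, 85.4 and 91.4 CPM with vehicle and 119, 125 and 112 CPM with dex in controls. In depleted cells it measured 77.8, 74.1 and 88.7 CPM with vehicle and 67.2, 53 and 81.6 CPM with dex. The 2 conditions overlapped with vehicle and not with dex. Dex raised it with siNSsiNS (0.31 ± 0.08, adjusted p = 0.0483) and lowered it with siHic5siNS (-0.27 ± 0.08, adjusted p = 0.0476), both near the threshold, and so was the difference (-0.58 ± 0.12, adjusted p = 0.0468). TLR4 lost its call without replicate 1 or 2 of siHic5siNS or replicate 2 or 3 of siNSsiNS (adjusted p up to 0.305) and with TMM factors (adjusted p = 0.0691). IL1RAP lost it without replicate 1 or 2 of siNSsiNS (adjusted p up to 0.0746).

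Channels, transporters and enzymes followed. UNC80, a subunit of the sodium leak channel complex, averaged 2.09 ± 0.595 CPM with vehicle and 3.29 ± 0.681 CPM with dex in controls (SD, n = 3), and 5.50 ± 0.101 and 3.42 ± 0.919 CPM in depleted cells. Its level was 263% of control with vehicle and 104% with dex, and the difference was -1.35 ± 0.24 (adjusted p = 0.0251). ANO2, a calcium-activated chloride channel, averaged 3.21 ± 1.77 and 7.78 ± 2.30 CPM in depleted cells against 9.90 ± 4.27 and 12.1 ± 3.78 CPM in controls (difference 1.00 ± 0.16, adjusted p = 0.00989). SLCO4A1, an organic anion transporter, averaged 7.38 ± 0.659 and 13.8 ± 1.51 CPM in depleted cells against 14.3 ± 1.79 and 15.6 ± 1.94 CPM in controls (difference 0.77 ± 0.15, adjusted p = 0.0309). Both genes were low in depleted cells with vehicle, and with dex the level difference from control was not called (adjusted p = 0.0974 and 0.677). PYGB, the brain form of glycogen phosphorylase, measured 107, 104 and 108 CPM with vehicle and 128, 131 and 130 CPM with dex in controls. It measured 95.4, 89.1 and 96.9 CPM with vehicle and 153, 175 and 151 CPM with dex in depleted cells, so that the depleted libraries were the lowest with vehicle and the highest with dex. Dex raised PYGB in both conditions, 1.22-fold and 1.70-fold (difference 0.48 ± 0.08, adjusted p = 0.00989). PNPLA7, a lysophospholipase, averaged 1.19 ± 0.166 and 3.10 ± 0.715 CPM in depleted cells against 2.22 ± 0.247 and 2.24 ± 0.139 CPM in controls (difference 1.33 ± 0.22, adjusted p = 0.0165). ST3GAL5, which makes the ganglioside GM3, averaged 20.5 ± 2.32 and 31.7 ± 3.34 CPM in depleted cells against 62.5 ± 17.6 and 59.4 ± 19.4 CPM in controls (difference 0.72 ± 0.12, adjusted p = 0.0155). Over these 6 genes, 2 to 5 of the 6 omissions of a pair ended the call, with adjusted p of up to 0.201 for UNC80 and SLCO4A1, 0.0706 for ANO2, 0.0749 for PYGB, 0.113 for PNPLA7 and 0.098 for ST3GAL5. Leaving out replicate 1 or 3 of siNSsiNS ended the call of PYGB, and replicate 1 of siHic5siNS or replicate 2 or 3 of siNSsiNS that of ANO2. For UNC80 it was replicate 2 of siHic5siNS or any siNSsiNS pair, for ST3GAL5 replicate 2 or 3 of siHic5siNS or 1 or 3 of siNSsiNS, and for SLCO4A1 and PNPLA7 any pair but replicate 3 of siHic5siNS.

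SMIM3 and GPR137B kept their calls whichever pair was left out. SMIM3, a small membrane protein, measured 41.1, 36.8 and 33.2 CPM with vehicle and 60.1, 57.1 and 49.3 CPM with dex in controls. It measured 28.9, 34.6 and 23.1 CPM with vehicle and 72.5, 83.2 and 58.3 CPM with dex in depleted cells. At each level alone the 2 conditions overlapped, while the responses were well apart, at 0.54 to 0.63 with siNSsiNS and 1.25 to 1.31 with siHic5siNS (difference 0.72 ± 0.09, adjusted p = 0.00325). GPR137B, a lysosomal membrane protein that acts on mTORC1, measured 37.9, 31.1 and 29.9 CPM with vehicle and 38.9, 37.5 and 30.6 CPM with dex in controls. Depleted cells gave 144, 178 and 142 CPM with vehicle and 99.9, 126 and 101 CPM with dex. Dex lowered it 1.42-fold in depleted cells (adjusted p = 4.03e-06), the siNSsiNS response was 0.11 ± 0.05, and the difference was -0.61 ± 0.07 (adjusted p = 0.00247), the smallest adjusted p of the set.

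Of the remaining genes, KIF13B, a kinesin motor, rose with dex in both conditions, 1.58-fold from 32 ± 3.64 CPM with siNSsiNS (SD, n = 3) and 2.30-fold from 37.5 ± 1.48 CPM with siHic5siNS (difference 0.55 ± 0.10, adjusted p = 0.0251). RP1L1, a retinal photoreceptor gene, measured 1.42, 1.55 and 1.87 CPM with vehicle and 7.11, 17.2 and 5.73 CPM with dex in depleted cells, and 1.52 to 4.89 CPM in the 6 controls (difference 2.09 ± 0.39, adjusted p = 0.0309). TG, the thyroglobulin gene, averaged 1.33 ± 0.347 and 2.07 ± 0.0840 CPM in controls and 10.6 ± 4.09 and 7.62 ± 2.65 CPM in depleted cells. Dex raised TG with siNSsiNS (0.65 ± 0.16, adjusted p = 0.0323) and lowered it with siHic5siNS (-0.46 ± 0.11, adjusted p = 0.0161). The difference for TG was -1.11 ± 0.20 (adjusted p = 0.0251). WDHD1, a DNA replication factor, averaged 36.3 ± 9.58 and 30.2 ± 7.60 CPM in depleted cells against 55.0 ± 0.593 and 57.1 ± 1.83 CPM in controls (difference -0.32 ± 0.06, adjusted p = 0.0388). LINC00525, a long non-coding RNA, and MAP7D2, a microtubule-associated protein, were named after their values were seen and rest on few reads. MAP7D2 had 3, 5 and 4 counts in the depleted vehicle libraries and 19, 26 and 17 with dex, against 43 to 65 in the controls (difference 1.98 ± 0.37, adjusted p = 0.0309). LINC00525 had 6, 5 and 4 counts in the depleted vehicle libraries and 31, 41 and 27 with dex, against 26, 25 and 9 and 46, 46 and 18 in the controls (difference 1.84 ± 0.33, adjusted p = 0.0254). On the log2(CPM + 0.5) scale with limma their differences shrank to 0.61 and 0.69 and were not called (adjusted p = 0.227 and 0.134). Every omission of a pair ended the calls of KIF13B, WDHD1 and MAP7D2 (adjusted p up to 0.201, 0.223 and 0.206). For LINC00525 and RP1L1 it was 5 of the 6 omissions (up to 0.217 and 0.208), all but replicate 1 and all but replicate 3 of siHic5siNS. For TG it was replicate 2 of siHic5siNS or replicate 1 or 3 of siNSsiNS (up to 0.146). Library size alone as the scaling also ended the call of KIF13B (adjusted p = 0.0616), TMM factors that of WDHD1 (0.0766), and DESeq2 those of WDHD1 (0.0631) and MAP7D2 (0.176).

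Promoter windows from RefSeq (GRCh38.p14, 250 bases before to 50 after the start the table lists) were matched for 17 of the 28 genes and searched on both strands for 2 kinds of element through which GR is known to act. The first is the hexamer AGAACA that GR contacts, which reads TGTTCT on the other strand, and its palindrome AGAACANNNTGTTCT, which contains that hexamer on each side. The other is TGANTCA with any base at N, a looser form of TGACTCA or TGAGTCA, the motif of AP-1. GR is known to tether to that factor. The hexamer was in 1 of the 17 windows, that of GAS2L3, and in 9.44% of the windows of 11787 tested genes. The palindrome was in 0 of the 17 and 0 of the 11787. An exact match to a motif this long is rare in windows this short, so these counts say little about GR elements. TGANTCA was in 2 of the 17, those of GPR137B and ITGA5, and in 5.08% of all windows. The match in ITGA5, TGAGTCA, is of the narrower AP-1 form, and that in GPR137B, TGAATCA, is not. The share of all windows with the narrower form was not counted. A match describes letters in the window and not a site in use. The 3 windows that hold an element are shown from 250 bases before the start to 10 after it, 5′ to 3′ on the strand of the gene with the match in capitals: the hexamer in GAS2L3 (chr12:100593368-100593627, plus strand), and TGANTCA in GPR137B (chr1:236142289-236142548, plus strand) and ITGA5 (chr12:54419257-54419516, minus strand).
GAS2L3: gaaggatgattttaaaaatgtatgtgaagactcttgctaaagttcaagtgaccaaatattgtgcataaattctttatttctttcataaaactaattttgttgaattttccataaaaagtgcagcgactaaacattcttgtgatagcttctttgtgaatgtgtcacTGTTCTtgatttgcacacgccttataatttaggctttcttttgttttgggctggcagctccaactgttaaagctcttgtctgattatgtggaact
GPR137B: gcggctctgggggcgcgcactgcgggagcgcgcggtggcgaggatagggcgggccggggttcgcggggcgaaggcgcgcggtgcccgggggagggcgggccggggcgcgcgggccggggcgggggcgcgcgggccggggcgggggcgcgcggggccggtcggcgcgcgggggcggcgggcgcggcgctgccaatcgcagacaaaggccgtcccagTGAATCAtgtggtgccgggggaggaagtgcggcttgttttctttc
ITGA5: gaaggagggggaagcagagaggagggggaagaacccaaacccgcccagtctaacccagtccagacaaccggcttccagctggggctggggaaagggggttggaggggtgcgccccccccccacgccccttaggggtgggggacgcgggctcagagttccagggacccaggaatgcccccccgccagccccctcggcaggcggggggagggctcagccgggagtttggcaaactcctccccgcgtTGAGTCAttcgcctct
The match in GAS2L3 begins 85 bases before the listed start, that in GPR137B 35 bases and that in ITGA5 6 bases. The gene record of GAS2L3 begins at chr12:100573684, upstream of its window, so its listed start lies inside the gene. The listed starts of GPR137B and ITGA5 stand at the edge of their gene records. The response to dex in depleted cells was up for ITGA5 and down for the other 2 genes, so the 2 windows with TGANTCA belong to genes with opposite differences.

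Of 29 tested members of a list of known glucocorticoid-induced genes, 17 rose with siNSsiNS and 17 with siHic5siNS, beside 1.87% and 4.36% of all tested genes, and none fell in either. The median responses were 0.85 and 0.80, against 0.01 and -0.01 over all genes, and the median difference was 0.01. The difference was called for 2 members, RHOB (higher) and SCNN1A (lower), beside 0.132% of all tested genes called higher and 0.0527% called lower. FKBP5, a GR co-chaperone that dex induces, rose by 1.47 ± 0.08 and 1.31 ± 0.08 on the log2 scale (difference -0.16 ± 0.11, adjusted p = 0.775). TSC22D3, the anti-inflammatory mediator GILZ, rose by 1.62 ± 0.10 and 2.12 ± 0.09 (difference 0.50 ± 0.13, adjusted p = 0.226). The transcription factor KLF15 rose by 2.40 ± 0.35 and 2.42 ± 0.34, where the SE of the difference, 0.51, leaves room for a change in either direction. CRISPLD2, a secreted protein, rose by 2.16 ± 0.36 with siHic5siNS, where the siNSsiNS value was 0.56 ± 0.31, but the difference of 1.59 ± 0.48 was not called (adjusted p = 0.327). For 16 of the 29 members the difference plus or minus 2 SE lay within 1 log2 unit of 0.

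Of 16 tested inflammatory genes that glucocorticoids repress, 1 fell with siNSsiNS and 4 with siHic5siNS, beside 0.626% and 4.57% of all tested genes. None had a called difference, beside 0.132% of all tested genes called higher and 0.0527% called lower. The median responses were -0.41 and -0.82, the median difference was -0.41, and 14 of the 16 differences lay below 0, beside a median of -0.02 and 56.5% below 0 over all genes. The 2 above 0 were those of IL32 (0.34 ± 0.23) and IL6 (0.07 ± 0.67). The 4 genes given next are those called as fallen with siHic5siNS. CSF2, which encodes the cytokine GM-CSF, fell in both conditions, by 1.18 ± 0.25 and 2.01 ± 0.29 on the log2 scale (difference -0.83 ± 0.38, adjusted p = 0.63). CCL2, a monocyte chemokine, fell by 2.23 ± 0.47 with siHic5siNS, and the siNSsiNS value was -0.89 ± 0.50 (difference -1.34 ± 0.67, adjusted p = 0.664). LIF and IL11, cytokines of the interleukin-6 family, fell by 1.23 ± 0.14 and 1.41 ± 0.33 with siHic5siNS, with siNSsiNS values of -0.47 ± 0.14 and -0.91 ± 0.35. Their differences were not called (LIF -0.76 ± 0.20, adjusted p = 0.226; IL11 -0.50 ± 0.48, adjusted p = 0.86).

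**Figure D4:**
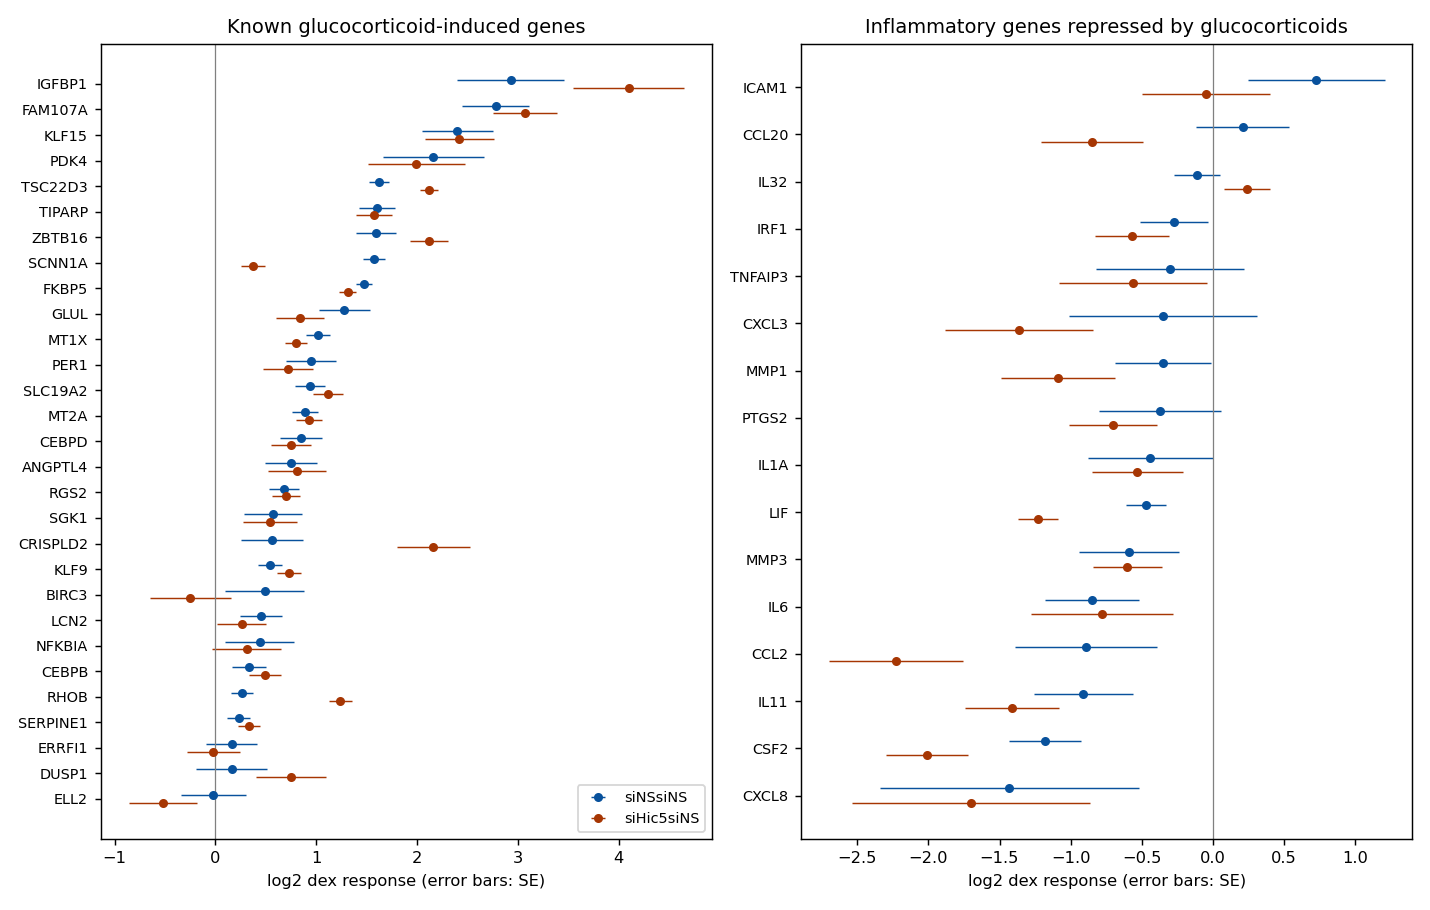
Log2 dex response with siNSsiNS (blue) and siHic5siNS (brown), with SE bars, for 29 known glucocorticoid-induced genes (left) and 16 inflammatory genes that glucocorticoids repress (right). The colours mostly lie together on the left, where SCNN1A and RHOB have the called differences, and on the right 14 of the 16 brown points lie left of the blue ones, none with a called difference.

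Other lists held few called differences, beside 0.132% of all tested genes called higher and 0.0527% called lower. In the list of symbols beginning with ITGA or ITGB, 24 genes, ITGA5 was the 1 called member. ITGB3, the beta 3 subunit, fell by 0.61 ± 0.16 with siNSsiNS, and its siHic5siNS value was 0.28 ± 0.14 (difference 0.90 ± 0.21, adjusted p = 0.15). WNT5A was the 1 called member of 12 WNT ligands, and CDH15 of 15 genes of striated muscle. Of 12 contractile genes of the smooth muscle type, none was called, and 10 of the 12 differences lay above 0 with a median of 0.19, beside 43.5% above 0 over all genes. TAGLN, an actin-binding protein of that list, gave 0.20 ± 0.10 and ACTA2, smooth muscle actin, -0.13 ± 0.16. All 4 tested metallothioneins rose in both conditions, beside 1.87% and 4.36% of all tested genes, with medians of 0.96 and 0.87. Reads of these near-identical genes may be shared among them. Of 16 targets of p53, none fell with siNSsiNS and 5 fell with siHic5siNS, beside 0.626% and 4.57% of all tested genes. Of these targets 1 rose with siNSsiNS and 0 with siHic5siNS, beside 1.87% and 4.36%. Their differences, 14 of 16 below 0 with a median of -0.16, were not called, and the sign count was the same for 16 mitotic genes (median -0.07) and 11 of 13 for genes of cholesterol and lipid synthesis (median -0.08). None of the 18 receptor coactivators and corepressors, 24 CHD and SWI/SNF remodelers, 16 mitotic genes or 16 DNA replication genes had a called difference. At the shares called over all genes, lists this short would mostly hold none.

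The same difference could be computed in libraries that do not enter the 28 log2 differences, those labelled with CHD9 siRNA and with BRM siRNA. These libraries do enter the shared estimate of the spread behind the 28 calls. TGFB1I1 measured 5.91 to 9.11 CPM in the 6 libraries labelled siCHD9siHic5 and 33 to 45.7 CPM in the 6 labelled siCHD9siNS, and 4.41 to 6.47 CPM and 21.7 to 32.3 CPM in the matching BRM siRNA libraries. CHD9 itself goes against the siCHD9siHic5 label. It measured 99.9 to 143 CPM in those libraries, above the 78.1 to 97.4 CPM of the siNSsiNS libraries and the 47.5 to 78 CPM of the siHic5siNS libraries. In the libraries labelled siCHD9siNS it measured 51.5 to 89.2 CPM, a range that overlaps that of siNSsiNS. The vehicle means of CHD9 were 123 CPM with siCHD9siHic5 and 60.1 CPM with siCHD9siNS. These 2 conditions thus differed in CHD9 as well as in TGFB1I1, and effects of the 2 cannot be told apart. SMARCA2, which encodes BRM, measured 5.79 to 10.4 CPM in the BRM siRNA libraries and 27.2 to 42.8 CPM in the siNSsiNS libraries. Between the libraries labelled siCHD9siHic5 and siCHD9siNS, 69 genes were called higher and 190 lower (together 1.71% of the tested genes), and 37 higher and 271 lower with library size alone as the scaling. Of the 28 genes, 20 had the same sign there (71.4%, beside 62.1% of all genes), and TG (-1.37 ± 0.24) and GAS2L3 (-0.65 ± 0.11) were called, both at an adjusted p of 0.0161. Among the BRM siRNA libraries edgeR called 0 genes (0% of the tested genes), with 2301 genes (15.2%) at an unadjusted p under 0.05, and with TMM factors or without pair terms it also called 0. Of the 28 genes, 21 had the same sign in the BRM siRNA libraries (75%, beside 41.7% of all genes). In 15 of the 28 the sign was the same in all 3 differences (53.6%, beside 16.8% of all genes).

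RHOB gave 0.98 ± 0.16 in the 12 libraries, 0.62 ± 0.16 in those labelled with CHD9 siRNA (adjusted p = 0.0507) and 0.25 ± 0.16 with BRM siRNA (adjusted p = 0.462). For ITGA5 the values were 0.85 ± 0.13, 0.35 ± 0.13 and 0.33 ± 0.13, and for CDH15 2.46 ± 0.44, 1.29 ± 0.50 and 1.73 ± 0.53. RASGRP2 gave 2.23 ± 0.40, 1.54 ± 0.51 and 0.95 ± 0.41. These 4 genes kept a positive value in each pair of conditions. SCNN1A gave -1.2 ± 0.16 in the 12 libraries but -0.16 ± 0.17 and -0.24 ± 0.16 in the others, and KRT8 gave 0.40 ± 0.07, -0.01 ± 0.07 and -0.03 ± 0.07. IL1RAP gave -0.70 ± 0.11, -0.33 ± 0.11 and 0.19 ± 0.11. Whether the differences themselves differed was tested for every gene, in a comparison chosen after the data were seen. No gene passed with edgeR, either against the CHD9 siRNA libraries (0 called, 1077 genes or 7.1% at an unadjusted p under 0.05) or against the BRM siRNA libraries (0 called, 2360 genes or 15.5%). At an unadjusted p under 0.05 lay 22 of the 28 genes in the first comparison and 25 in the second, where the lowest adjusted p was 0.0965. The 28 were selected for a large value in the 12 libraries, which enters both comparisons.

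**Figure D5:**
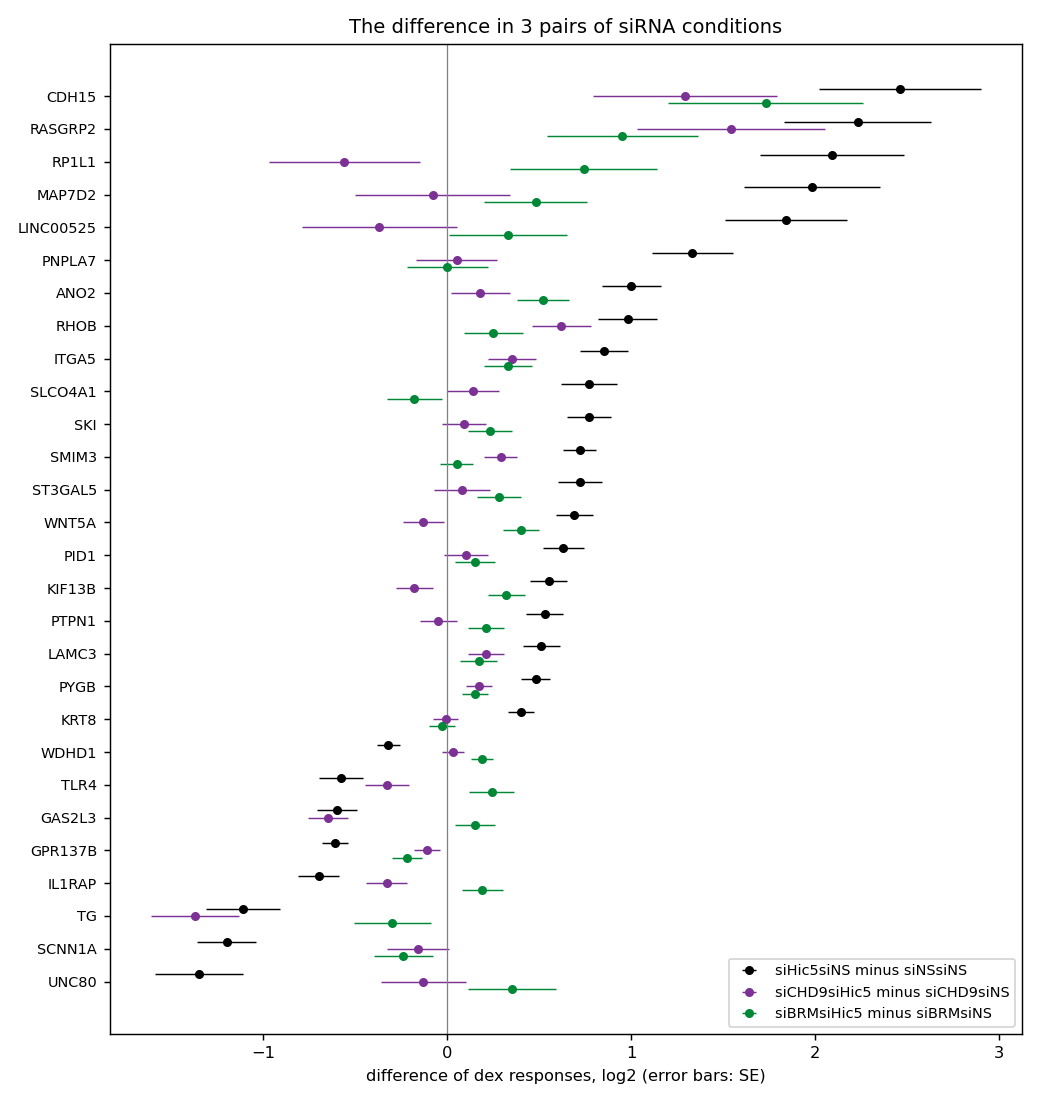
Difference of dex responses (log2, SE bars) for the 28 called genes in the 12 libraries (black), and the same difference among CHD9 siRNA libraries (purple) and BRM siRNA libraries (green). The black values are those by which the genes were called. Most coloured points lie nearer to 0, and 15 of the 28 genes, CDH15, RASGRP2, RHOB and ITGA5 among them, have the same sign in all 3.

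Just outside the threshold lay 15 genes with an adjusted p from 0.05 to under 0.1, 11 with a higher and 4 with a lower response, named here after their values were seen. The nearest of larger size were PGF, a ligand of the VEGF family (difference 1.22 ± 0.25, adjusted p = 0.0556), and GREB1, a hormone-responsive gene (-1.01 ± 0.21, adjusted p = 0.062). EGFR, the epidermal growth factor receptor, gave -0.77 ± 0.17 (adjusted p = 0.0907). Just inside it lay TLR4 (adjusted p = 0.0468) and WDHD1 (adjusted p = 0.0388).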

How the data were processed

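RNA-seq counts per gene were used as the authors deposited them; the table is named as normalised CPM, but its values are whole-number counts. Reads were mapped with TopHat2 2.1.1 to GRCh38 and edgeR was used, per the submitters' processing notes. No source used here gives the counter, annotation or strand setting, so overlapping and antisense genes may share reads. Of 15186 genes, 15179 with a CPM above 1 in at least 3 of the 36 libraries were tested. In edgeR 4.0.16 (R 4.3.3), upper-quartile factors and quasi-likelihood tests were used on all 36 libraries. Responses and their difference had a term for each of 18 vehicle and dex pairs (12 residual degrees of freedom), and levels had 12 group means (24). Adjusted p values are Benjamini-Hochberg over all tested genes. Fold changes come from these fits, and the SD is over the 3 scaled CPM values of a group. Each SE is the absolute log2 change divided by the square root of its quasi-likelihood F statistic. The SE of a difference therefore need not follow from those of its 2 responses.

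The replicate number links the vehicle and dex libraries of a condition, since the labels give replicates as separate days: residuals correlated at 0.458 to 0.767. Across the 2 conditions they correlated at -0.012 to 0.329, so levels were not paired. No 2 replicate libraries were alike within counting noise. Genes named by rule are TGFB1I1, NR3C1 and called genes of 2 kinds. The first are the 14 largest each way with a mean of at least 1 CPM over the 12 libraries and 1 sign in the 3 replicates. The others are the 4 called genes with the smallest p in each class of levels and each gene list. Uncalled genes in the text, other than TGFB1I1 and NR3C1, were named outside this rule. The members and lists were chosen with earlier results of these data known. Alternatives were DESeq2 1.42.0, limma 3.58.1 on log2(CPM + 0.5), other scalings, filters and library sets, and leaving out each pair. The fits were tested on simulated data.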

Additional observations from a re-analysis of the deposited data

How the results depend on the processing

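None of the 28 called differences changed direction under the alternatives run; 25 lost their call in at least 1 omission of a pair, and all 28 without the replicate block. The counts of 20 higher and 8 lower responses became 45 and 14 with DESeq2, 10 and 5 in a fit of the 12 libraries alone, 26 and 6 with TMM factors, 16 and 10 with library size alone, 15 and 5 among genes with a mean of 10 CPM or more, and 0 and 0 with no replicate block. The block also set how many genes were called for dex: without it, 52 with siNSsiNS (379 with it), 133 with siHic5siNS (1355) and 0 for the difference in the CHD9 siRNA libraries (259). The filter at a mean of 10 CPM gave 225 genes for dex with siNSsiNS, with fewer genes tested. Leaving out 1 pair gave 4 to 16 higher and 3 to 10 lower differences, 146 to 391 genes for dex with siNSsiNS and 670 to 1407 with siHic5siNS. Leaving out 1 library gave 7007 to 7550 genes for the vehicle level and 6982 to 7626 for the dex level, where a block for the replicate number gave 8784 and 8830.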
